A study of Mus musculus with 6 samples.

Results

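The immediate early genes described here are Fos, Fosb, Jun, Junb, Egr1, Ier2, Ier3, Dusp1, Nr4a1 and Zfp36, a list of 10 transcription factor and feedback genes taken by gene symbol from the 55487 Ensembl mouse genes of the deposited table. Their RNA was measured by sequencing in bulk from 6 tongue grafts of B16F10, a pigmented mouse melanoma line, grown in C57BL/6J mice labelled as wild type. In the 3 inhibition grafts, LN-innervating nociceptive nerves (LN, lymph node) had been labelled backwards along their axons from the cervical nodes with AAV2/retro-Trpv1-hM4D(Gi)-mCherry, a vector that uses the Trpv1 promoter to express a designed inhibitory receptor. The 3 control grafts are labelled vehicle-treated, while the design text pairs the inhibitory vector with AAV2/retro-Trpv1-mCherry, which lacks the receptor, and describes the ligand Deschloroclozapine for all mice, so which treatment the controls had was unclear. The vector was given 6 weeks before the graft and the ligand 2 times per day for 12 days. Tissue outside the tumour was removed at harvest, and the columns of the count table name the inhibition group as nociceptive denervation. The age of the mice is not given in the sources used here, and the grafts came from 1 tumour line. The vector was injected into the nodes, not the tongue, and no library holds a measure of nerve activity, so which nerves or cells were affected was not tested.

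Immediate early genes are transcribed within minutes of a stimulus from factors that are already present in the cell, and their mRNAs are short-lived. Growth factor, stress and calcium signals reach them through MAP kinases, serum response factor with its ternary complex partners, and CREB, which binds the cAMP response element. Fos and Jun proteins pair into the transcription factor AP-1. Dusp1 then removes phosphate from MAP kinases, and Zfp36 (tristetraprolin) binds AU-rich elements and speeds the decay of early mRNAs, so the response ends itself.

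The sequences shown first are the upstream stretches of 4 members. Dusp1 and Junb are shown because their groups of grafts did not overlap, Fos as the gene the family is known by, and Nr4a1 because its promoter holds the most cAMP response element half-sites. They come from RefSeq on GRCm38.p6, run from 250 bases before the start of transcription, and have the motifs searched for in capitals. For Dusp1 the last 47 bases are left out because another annotated transcript begins there.
Dusp1 (chr17:26508520-26508722, minus strand): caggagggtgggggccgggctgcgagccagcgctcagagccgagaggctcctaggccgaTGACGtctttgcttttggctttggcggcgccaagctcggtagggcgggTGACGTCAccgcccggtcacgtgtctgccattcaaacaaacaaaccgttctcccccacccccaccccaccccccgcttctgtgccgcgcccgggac
Junb (chr8:84978749-84978998, minus strand): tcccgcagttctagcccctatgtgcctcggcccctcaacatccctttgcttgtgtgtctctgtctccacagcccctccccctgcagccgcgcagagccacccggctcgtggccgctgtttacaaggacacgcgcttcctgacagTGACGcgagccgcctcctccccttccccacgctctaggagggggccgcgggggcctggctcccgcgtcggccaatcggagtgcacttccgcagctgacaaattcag
Fos (chr12:85473640-85473889, plus strand): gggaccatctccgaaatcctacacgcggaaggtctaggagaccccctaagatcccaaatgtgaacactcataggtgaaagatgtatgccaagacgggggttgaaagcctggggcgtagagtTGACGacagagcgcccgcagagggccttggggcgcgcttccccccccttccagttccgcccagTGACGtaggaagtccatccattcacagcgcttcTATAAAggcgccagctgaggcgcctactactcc
Nr4a1 (chr15:101266596-101266845, plus strand): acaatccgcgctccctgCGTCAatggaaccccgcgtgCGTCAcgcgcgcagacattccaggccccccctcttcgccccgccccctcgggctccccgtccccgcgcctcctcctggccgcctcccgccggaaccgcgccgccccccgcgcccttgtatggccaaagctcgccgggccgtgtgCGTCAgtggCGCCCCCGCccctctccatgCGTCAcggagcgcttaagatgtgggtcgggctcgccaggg

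The motifs were searched on both strands in the 250 bases before each of 32851 RefSeq starts, among them the starts of 8 of the 10 genes. The full cAMP response element TGACGTCA was present for 1 of the 8, Dusp1, between -143 and -136 counted from the start, and in 1.55% of all promoters. Its half-site TGACG, which the full element also contains on each strand, was present for 5 of the 8 (Fos, Fosb, Junb, Dusp1 and Nr4a1) and in 17.8% of all promoters. Nr4a1 carried it at 4 positions, all on the opposite strand, and Fos at 2, with a TATAAA box between -33 and -28 that 12.4% of promoters share. The EGR site GCGNGGGCG was found for Fosb, Zfp36 and Nr4a1 (4.7% of all promoters), and the AP-1 site TGANTCA for 0 of the 8 (6.75%). A CArG box, the site of serum response factor, was found for Zfp36 (1.47%). All 250 bases searched for Zfp36 lie in exons that GENCODE annotates to it. A match is a run of letters and not a measured binding event. Only exact matches within the 250 bases were counted, so variant sites and sites farther upstream were missed. Egr1 and Ier2 were not searched.

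A second set of sequences is shown because Zfp36 is itself a member. The nonamer TTATTTATT, an AU-rich element that Zfp36 binds, was present in the 3′ untranslated region of 3 of the 10 genes (Fos, Dusp1 and Zfp36), read from the longest coding transcript of each gene in GENCODE M21, and in 8.03% of 13445 tested genes. The sites lie 655 bases after the stop codon in Fos, 103 and 392 bases after it in Dusp1, and 589 bases after it in Zfp36, with the nonamer in capitals and positions on GRCm38.
Fos (chr12:85477103-85477131, plus strand): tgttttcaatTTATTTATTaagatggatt
Dusp1 site 1 (chr17:26506159-26506187, minus strand): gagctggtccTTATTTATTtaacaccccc
Dusp1 site 2 (chr17:26505870-26505898, minus strand): gtttttacctTTATTTATTtttgtgtagg
Zfp36 (chr7:28376951-28376979, minus strand): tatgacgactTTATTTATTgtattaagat

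The libraries held 14477277 to 20972494 counts in the inhibition group and 15420091 to 20914180 counts in the control group, so that 1 count was worth 0.0477 to 0.0691 CPM, the usual unit of counts relative to the library total. All 10 genes passed the filter on low counts, with 48 to 3561 counts per library. The melanoma markers Pmel, Tyrp1, Dct, Mlana, Mitf, Sox10 and Tyr were all tested and summed to 22164 to 26818 CPM in inhibition grafts, against 15570 to 23092 CPM in control grafts, so the labelled tumour was present in each. The T cell markers Cd3e, Cd3d, Cd8a, Cd4 and Trac were below the filter (0 of 5 tested).

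No immediate early gene passed the test between the groups. Fos, Fosb, Junb, Ier3, Dusp1, Nr4a1 and Zfp36 had log2 fold changes of -0.32 to -1.15 (inhibition over control), Jun and Ier2 lay at -0.017 and -0.013, and Egr1 alone was positive, at 0.15. The median over the 10 genes was -0.34, against 0.00485 over all 15666 genes tested, and 9 of 10 were negative against 49.0% of all genes. By the quasi-likelihood test of edgeR with Benjamini-Hochberg adjustment over all genes, 0 of 10 had an adjusted p under 0.05, where 0.0383% of all genes did. At an unadjusted p under 0.05 there were 2 of 10 (Dusp1 and Junb, both lower), where 15.4% of all genes passed in either direction and 7.00% on the lower side, and 0 of 10 were higher, where 8.36% of all genes were. DESeq2 called 0 of 10 as well, with 5 at an unadjusted p under 0.05 and 3.68% of all genes called (1.21% lower), and limma-voom called 0 with 2 unadjusted. The intervals of the single genes were wide, and these values do not show that the genes were equal in the groups. Whether each sample was its own animal is not stated in the labels, so the p-values speak to variation among the samples at hand, which may be technical.

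**Figure D1:**
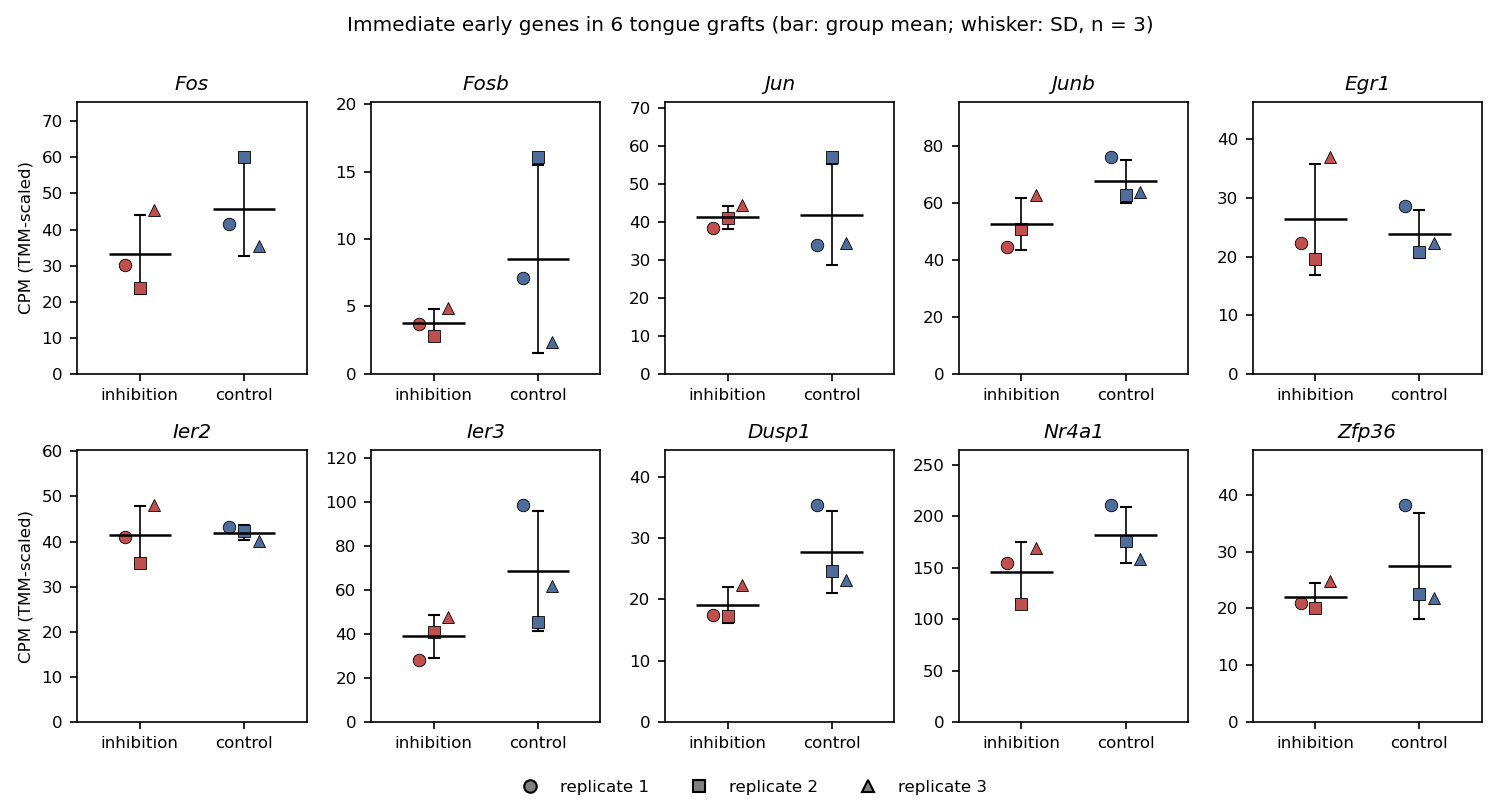
Level of each immediate early gene in CPM scaled with TMM factors, by group (inhibition left, control right). Points are libraries with the replicate number as the marker shape, bars are group means and whiskers the SD (n = 3), and the groups are fully apart for Dusp1 and Junb only.

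Dusp1, a phosphatase that switches off MAP kinases, showed the clearest separation. It stood at 17.5, 17.3 and 22.4 CPM in inhibition 1, 2 and 3, against 35.5, 24.6 and 23.2 CPM in control 1, 2 and 3. All inhibition libraries lay below all control libraries, with control 1 well above the other two controls. The means were 19.1 ± 2.92 CPM under inhibition and 27.8 ± 6.71 CPM in controls (SD, n = 3 each), a fold of 0.689 with a 95% interval of 0.519 to 0.915. The log2 fold change was -0.54 with a standard error of 0.18 (edgeR adjusted p = 0.232), and it was -0.33 without control 1. In the annotation, 11 bases of the exons annotated to Dusp1 (ENSMUSG00000024190, chromosome 17, 26505590 to 26562128 on GRCm38) overlap those of Ergic1 on the other strand.

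Zfp36, the other feedback gene, followed a single library. It had 20.9, 20.1 and 24.8 CPM in inhibition 1, 2 and 3, against 38.3, 22.4 and 21.8 CPM in control 1, 2 and 3. Control 1 stood apart, and the other two controls lay within the range of the inhibition grafts. The log2 fold change of -0.32 (standard error 0.23, edgeR adjusted p = 0.518) was -0.016 without control 1.

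Ier3, a gene of stress and growth factor responses that affects cell survival, varied most among the abundant members. Its levels were 28.2, 41.0 and 47.6 CPM in inhibition 1, 2 and 3, against 98.8, 45.4 and 61.8 CPM in control 1, 2 and 3. The groups overlapped because control 2 lay below inhibition 3, and the controls spanned a fold of 2.18. Means of 38.9 ± 9.82 CPM under inhibition and 68.7 ± 27.3 CPM in controls (SD, n = 3 each) gave a log2 fold change of -0.81 (standard error 0.34, edgeR adjusted p = 0.336), and -0.47 without control 1. Ier2, a nuclear protein of the early response, was by contrast the steadiest member, with 41.1, 35.3 and 48.2 CPM in inhibition 1, 2 and 3, against 43.3, 42.4 and 40.1 CPM in control 1, 2 and 3. All control values of Ier2 lay inside the range of the inhibition grafts. Its log2 fold change had a 95% interval of -0.27 to 0.24, the narrowest of the 10 genes.

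The Fos side of AP-1 was led by control 2. Fos stood at 30.3, 23.8 and 45.3 CPM in inhibition 1, 2 and 3, against 41.6, 60.3 and 35.4 CPM in control 1, 2 and 3. Inhibition 3 lay above 2 of the 3 controls, so the groups overlapped. Its means were 33.1 ± 11.0 CPM under inhibition and 45.7 ± 12.9 CPM in controls (SD, n = 3 each), with a log2 fold change of -0.46 (standard error 0.30, edgeR adjusted p = 0.498) that was -0.23 without control 2, -0.27 without inhibition 2 and -0.77 without inhibition 3. Fosb, the Fos paralog with slower kinetics in neurons, was the scarcest member, with 3.71, 2.82 and 4.86 CPM in inhibition 1, 2 and 3, against 7.12, 16.1 and 2.32 CPM in control 1, 2 and 3. The controls of Fosb held both the highest and the lowest of the 6 values, a fold of 6.95 between them, on 48 to 248 counts. Its log2 fold change of -1.15 (standard error 0.67, edgeR adjusted p = 0.456) was -0.31 without control 2, and -0.66 by limma-voom.

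Among the Jun proteins, which pair with Fos, the members differed in shape. Junb, often a brake on Jun activity, had 44.4, 50.8 and 62.6 CPM in inhibition 1, 2 and 3, against 76.3, 62.7 and 63.9 CPM in control 1, 2 and 3. The groups of Junb were apart by the small gap between 62.6 CPM in inhibition 3 and 62.7 CPM in control 2, and they overlapped when library totals alone or RLE factors set the scale. Groups apart with inhibition below were found in 2 of 10 members and in 11.0% of all genes, and groups apart with inhibition above in 0 of 10 and 10.2%, which makes 21.3% of all genes in either direction. The log2 fold change of Junb was -0.36 (standard error 0.13, edgeR adjusted p = 0.259), and 173 bases of its exons overlap Prdx2 on the other strand, whose reads cannot be told apart without strand. Jun had 38.4, 41.1 and 44.5 CPM in inhibition 1, 2 and 3, against 33.9, 57.3 and 34.6 CPM in control 1, 2 and 3. All 3 inhibition values of Jun lay between the second and the highest control, and its log2 fold change was 0.26 without control 2. Jun also overlaps an antisense gene, Junos, by 232 bases, and Zfp36 an antisense gene, Gm44710, by 125 bases.

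The remaining transcription factors were Nr4a1, an orphan nuclear receptor, and Egr1, a zinc finger factor. Nr4a1 was at 154, 114 and 170 CPM in inhibition 1, 2 and 3, against 212, 176 and 158 CPM in control 1, 2 and 3. Inhibition 3 lay above control 3, and the log2 fold change was -0.32 (standard error 0.16, edgeR adjusted p = 0.398). It was -0.18 without inhibition 2, -0.20 without control 1 and -0.0093 with a covariate for muscle markers. Egr1 had 22.3, 19.6 and 37.1 CPM in inhibition 1, 2 and 3, against 28.5, 20.8 and 22.3 CPM in control 1, 2 and 3. Inhibition 3 was the highest of all 6 and inhibition 2 the lowest. Without inhibition 3 the log2 fold change of Egr1 was -0.20, against 0.15 with it (standard error 0.26, edgeR adjusted p = 0.813), and leaving out any other library gave 0.041 (without control 2) to 0.31 (without inhibition 2).

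**Figure D2:**
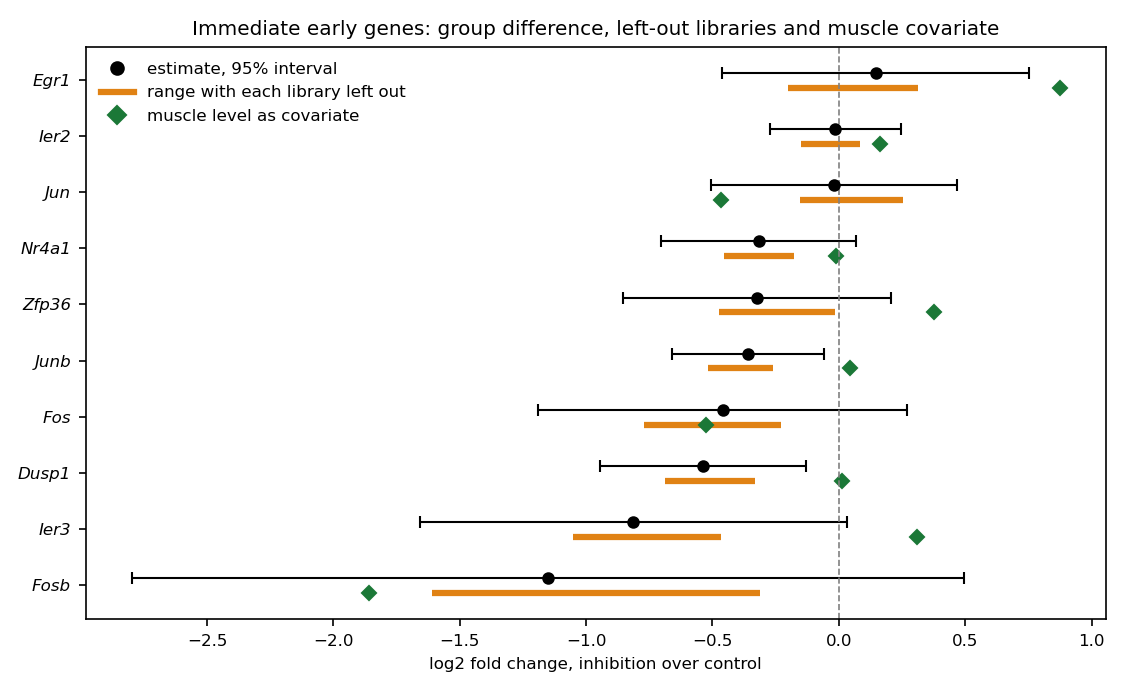
Log2 fold change of each immediate early gene, inhibition over control, with its 95% interval from edgeR (black), the range of the estimate when each of the 6 libraries was left out in turn (orange), and the estimate after adding a muscle marker covariate (green). The intervals of Dusp1 and Junb lie below 0 before adjustment, and the green points are spread on both sides of 0.

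The same library was highest within the inhibition group in every member. Inhibition 3 held the highest of the 3 inhibition values for 10 of 10 genes, where it did so for 34.2% of all genes tested, and this count was 10 with TMM, RLE and upper-quartile factors and with library totals alone. Inhibition 2 held the lowest of all 6 values for Fos, Egr1, Ier2, Dusp1, Nr4a1 and Zfp36, and for 17.4% of all genes tested. Among the controls the members fell into 2 sets: control 1 was the highest of all 6 libraries for Junb, Ier3, Dusp1, Nr4a1 and Zfp36, and control 2 for Fos, Fosb and Jun. Over all genes tested, 26.1% were highest in control 1 and 12.2% in control 2. With each gene centred on its own mean log2 CPM, the median of the 10 genes was -0.26, -0.30 and 0.076 in inhibition 1, 2 and 3, against 0.38, 0.098 and -0.073 in control 1, 2 and 3. The groups of this median overlapped, since inhibition 3 lay above control 3. As a measure of spread, the SD of log2 CPM within groups put Fosb at the 99.0th percentile and Ier3 at the 90.1th percentile of genes with at least 1 CPM, and Ier2 at the 53.4th percentile.

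**Figure D3:**
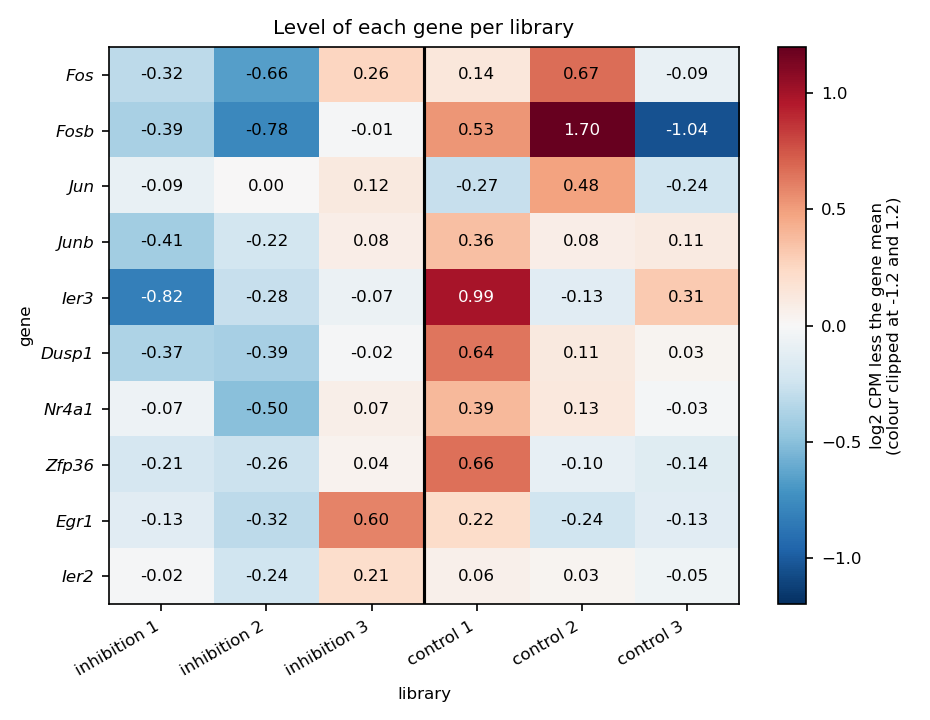
Log2 CPM of each immediate early gene in each library, less the mean of that gene over the 6 libraries, with inhibition libraries left of the black line and control libraries right of it. Rows Junb to Zfp36 peak in control 1, rows Fos to Jun in control 2, and rows Egr1 and Ier2 in inhibition 3.

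Compared per length, as CPM divided by kilobases of annotated exon (RPKM), Ier3 and Nr4a1 had the highest levels. Over all 6 libraries Ier3 averaged 47.6 RPKM and Nr4a1 46.8 RPKM, followed by Ier2 (27.4 RPKM), Junb (26.1 RPKM), Fos (16.8 RPKM), Jun (13.0 RPKM), Zfp36 (7.12 RPKM), Dusp1 (7.07 RPKM), Egr1 (5.60 RPKM) and Fosb (0.987 RPKM). Neighbours in this order overlapped in their ranges over the libraries, except that the lowest Nr4a1 level (32.6 RPKM) lay above the highest Ier2 level (31.7 RPKM), and the lowest Egr1 level (4.38 RPKM) above the highest Fosb level (2.58 RPKM). Exon lengths were the union over all annotated transcripts, 1131 bases for Ier3 and 6243 bases for Fosb, so a gene with long minor transcripts is set too low.

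Summed levels of some cell type markers differed between the groups and among the libraries, in grafts trimmed of non-tumour tissue. All 12 skeletal muscle markers had a positive log2 fold change, and their summed level was 4080, 3614 and 2454 CPM in inhibition 1, 2 and 3, against 885, 1964 and 1289 CPM in control 1, 2 and 3. All 10 neutrophil markers were negative, with sums of 13.5, 16.1 and 37.5 CPM in inhibition 1, 2 and 3, against 107, 45.8 and 83.8 CPM in control 1, 2 and 3. Neither sum overlapped between the groups, and 21.3% of all genes tested did not overlap either. By the edgeR test 0 of the 12 muscle markers and 0 of the 10 neutrophil markers passed. Inhibition 3, the highest inhibition graft for each immediate early gene, had the least muscle and the most neutrophil marker RNA of its group. Control 1, the highest of all for 5 of them, had the least muscle and the most neutrophil marker RNA of all. Its sums of melanoma (15570 CPM), fibroblast (974 CPM), endothelium (146 CPM), macrophage (211 CPM) and mast cell markers (7.60 CPM) were also the lowest of all libraries. The squamous epithelium sum was lowest in control 3. The order of muscle and neutrophil markers did not hold among the other controls. Control 2, the highest of all for Fos, Fosb and Jun, had the most muscle and the least neutrophil marker RNA of the controls. Fibroblast markers summed to 1654 to 2200 CPM in inhibition grafts, against 974 to 1440 CPM in controls, and the squamous epithelium markers to 1434 to 4684 CPM, against 1101 to 2606 CPM. When mean log2 CPM of the muscle markers was added as a covariate, the 10 genes had a median log2 fold change of 0.027, with 4 negative and 6 positive. Under that covariate Dusp1 stood at 0.011, Junb at 0.043, Ier3 at 0.31, Zfp36 at 0.37, Fos at -0.52 and Fosb at -1.86. Jun stood at -0.47 with the covariate, against -0.017 without it. Egr1 stood at 0.87, with an unadjusted p of 0.00834 and an adjusted p of 1 by the edgeR test across all genes. Since the muscle level separated the groups, its part and that of the treatment cannot be told apart, and in bulk tissue fewer cells of a type and less RNA per cell cannot be told apart either. Which cells made the early RNA was not measured.

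**Figure D4:**
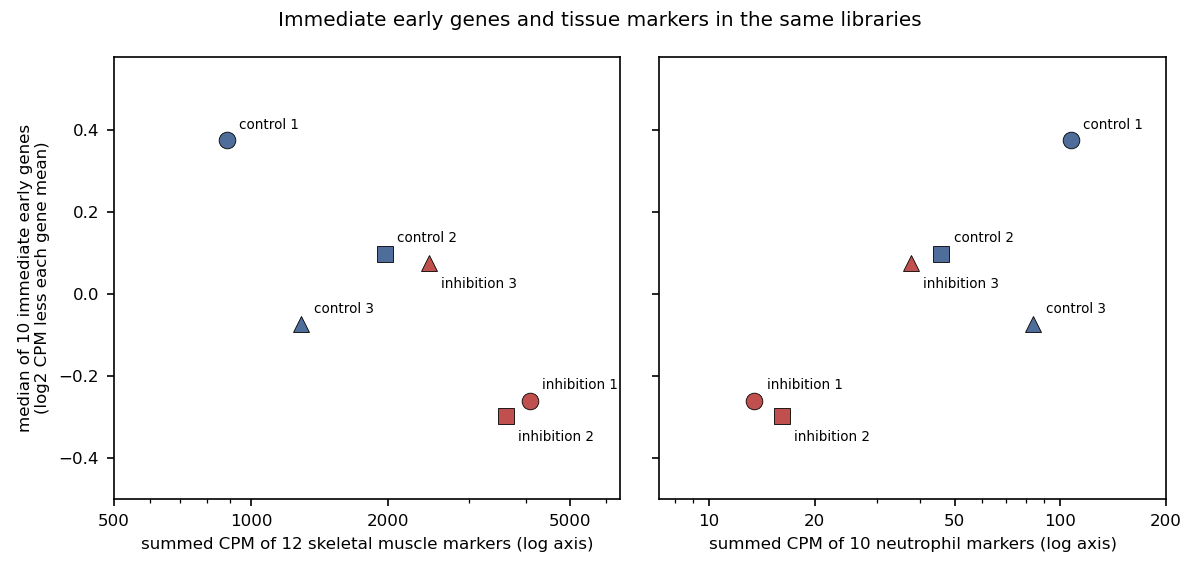
Median centred log2 CPM of the 10 immediate early genes in each library against the summed CPM of 12 skeletal muscle markers (left) and of 10 neutrophil markers (right), both on log axes. Inhibition 1 and 2 sit lowest, at -0.26 and -0.30, with the most muscle and the least neutrophil marker RNA. Control 1 sits highest, at 0.38, with the reverse. Control 2 lies above control 3, at 0.098 and -0.073, with more muscle and less neutrophil marker RNA than control 3.

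Related genes of the early response, in 8 lists by role, also gave 0 calls in edgeR among 102 tested. At an unadjusted p under 0.05 there were 22 of 102, where 15.4% of all genes passed, and DESeq2 called 8, where it called 3.68% of all genes, and limma-voom 0. Of 9 tested AP-1 partners, 0 passed in edgeR (1 at an unadjusted p under 0.05), and the log2 fold changes were all negative, their median being -0.068. The small Maf factor Maff had 16.8 ± 2.94 CPM under inhibition and 21.9 ± 3.43 CPM in controls (log2 fold change -0.38, edgeR adjusted p = 0.305), and the stress factor Atf3 17.3 ± 2.95 and 22.6 ± 4.90 CPM (-0.38, 0.348; SD, n = 3 each). Maff was at -0.25 without control 1 and 0.094 with the muscle covariate, and Atf3 at -0.22 without control 2 and -0.59 with the covariate. Of 17 other induced transcription factors, 0 passed, with 9 positive, 8 negative and a median of 0.052. The Fos relative Fosl2 was at -0.20, and at -0.13 without inhibition 2. Egr3 stood at 3.01, 2.36 and 3.53 CPM in inhibition 1, 2 and 3, against 1.45, 1.95 and 1.45 CPM in control 1, 2 and 3, with the inhibition grafts all above the controls. Its log2 fold change was 0.88 (standard error 0.29, edgeR adjusted p = 0.227), and those of Egr2, Nr4a3 and Nr4a2 were 0.54, 0.48 and 0.052 with overlapping groups. Egr2 was at 0.055 without inhibition 3 and Nr4a3 at 0.13 without control 1. Nr4a2 was at -0.037 without control 1 and at -0.079 without control 3. The 3 estimates thus changed with the library left out. With the muscle covariate Egr3 was at 0.80, Egr2 at 0.36, Nr4a3 at -0.78 and Nr4a2 at -0.39. Id1, an inhibitor of differentiation factors, was at 0.64 (edgeR adjusted p = 0.284), and at -0.23 with the covariate. Whether relatives differed from the members was not tested.

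Of 16 feedback genes of the kinase pathways 0 passed in edgeR, 13 were negative, against 49.0% of all genes, and the median was -0.12. Dusp8, Dusp10 and Sik1 were positive, at 0.16, 0.59 and 0.16. Dusp6, the ERK phosphatase, had 210, 217 and 244 CPM in inhibition 1, 2 and 3, against 365, 252 and 270 CPM in control 1, 2 and 3. Its groups did not overlap and control 1 was again highest (log2 fold change -0.40, standard error 0.14, edgeR adjusted p = 0.244), and without control 1 it was -0.23, and with the muscle covariate 0.082. The polo-like kinase gene Plk2 was at -0.24 (adjusted p = 0.393), at -0.15 without inhibition 2 and at 0.051 with the covariate. Of 12 NF-kappaB feedback genes 0 passed and 10 were negative, with a median of -0.14. Tnfaip3, the A20 ubiquitin-editing enzyme that restrains NF-kappaB, had 5.75, 6.76 and 6.00 CPM in inhibition 1, 2 and 3, against 16.9, 8.98 and 9.49 CPM in control 1, 2 and 3, a log2 fold change of -0.93 (standard error 0.25, edgeR adjusted p = 0.186, DESeq2 adjusted p = 0.0171). Nfkbia, the inhibitor protein of NF-kappaB, was at -0.55 (edgeR adjusted p = 0.244). In both, control 1 was highest and the groups did not overlap, and without control 1 they were at -0.59 and -0.30. With the muscle covariate Tnfaip3 was at -0.23 and Nfkbia at -0.17.

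Upstream regulators were nearly level, with 10 of 17 positive, a median of 0.024 and 0 passing in edgeR. Map2k1, the kinase MEK1 that activates ERK, was the exception in precision, with 124, 132 and 126 CPM in inhibition 1, 2 and 3, against 168, 158 and 167 CPM in control 1, 2 and 3. The groups were far apart relative to their spread, and the log2 fold change of -0.37 (standard error 0.068) had an edgeR adjusted p of 0.122 and a DESeq2 adjusted p of 0.00336. Leaving out any 1 library kept it between -0.41 and -0.36, and it was -0.30 with the muscle covariate. Atf2, a partner of Jun, was at -0.16 (edgeR adjusted p = 0.320). Of 13 other induced effectors 0 passed, with 6 positive and 7 negative. At an unadjusted p under 0.05 in edgeR 3 were lower and 2 higher, where 7.00% and 8.36% of all genes were. Groups were apart with inhibition below in 3 (Gadd45a, Rhob and Mcl1) and above in 2, where 11.0% and 10.2% of all genes were. The matricellular gene Ccn2 had a log2 fold change of 0.61 (edgeR adjusted p = 0.162, DESeq2 adjusted p = 0.00284) and Phlda1 of 0.40 (edgeR adjusted p = 0.209), each with all inhibition grafts above all controls. With the muscle covariate Ccn2 was at 0.21 and Phlda1 at 0.19.

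**Figure D5:**
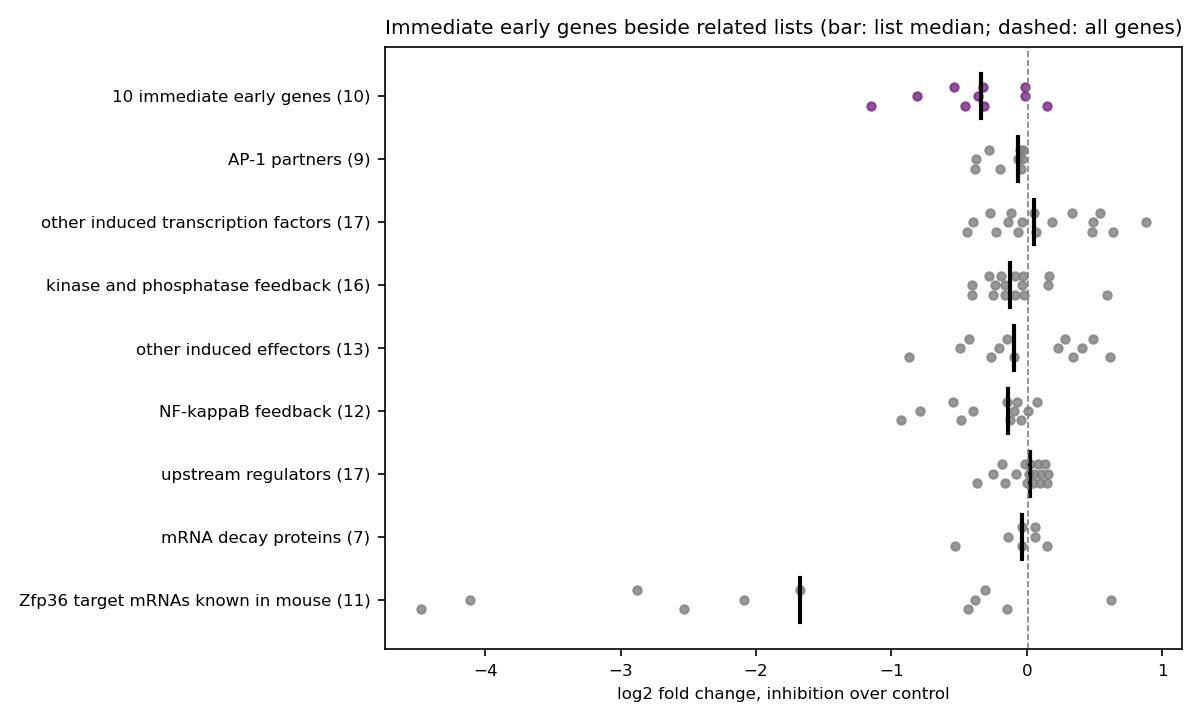
Log2 fold change, inhibition over control, of the 10 immediate early genes (top row) and of the tested genes of 8 related lists, whose numbers stand in brackets. Black bars are list medians and the dashed line is the median of all genes tested, and the immediate early genes have a median of -0.34.

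The proteins of mRNA decay and stability listed beside Zfp36 and the mRNAs it is known to destabilise did not share a size of difference. Of 7 such proteins, Elavl1 among them, 0 passed in edgeR and the median was -0.034. The paralog Zfp36l1 was at 0.15 and the RNase gene Zc3h12a at -0.53 (edgeR adjusted p = 0.344 and 0.360). Zc3h12a was at -0.19 without control 1 and at 0.055 with the muscle covariate. Of 11 tested Zfp36 target mRNAs 0 passed in edgeR, 10 were negative and the median was -1.68. Only Ccl2 was positive, at 0.62. The chemokine Cxcl3 had 0.490, 0.154 and 0.762 CPM in inhibition 1, 2 and 3, against 10.7, 3.97 and 10.1 CPM in control 1, 2 and 3, so its groups lay far apart. Its log2 fold change was -4.11 (standard error 0.57, edgeR adjusted p = 0.0788), and DESeq2 called it (adjusted p = 1.06e-13). The Cxcl3 values rested on only 7, 3 and 16 counts in inhibition 1, 2 and 3. The cytokine Il1b had a log2 fold change of -2.88 (edgeR adjusted p = 0.166), with an inhibition mean of 2.89 ± 1.37 CPM against a control mean of 21.6 ± 12.0 CPM (SD, n = 3 each). With the muscle covariate Cxcl3 was at -2.52 and Il1b at -0.99. Both genes are known products of activated neutrophils and macrophages. The 10 neutrophil markers had a median log2 fold change of -1.94 and 8 of 9 macrophage markers were positive, and their part in these differences was not tested.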

How the data were processed

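RNA was sequenced from 3 inhibition and 3 control grafts, grouped by their sample titles. The authors deposited 1 table of read counts, unnormalized, with a line for each Ensembl gene. Its values are whole and the library totals differ. Genome build mm10 and HISAT2 2.0 are named per the submitters' processing notes, and the counting program, annotation release and strand setting are not given in the sources used here. Columns were matched to samples by name, and 0 value columns were left unused. Symbols were found for 55141 of 55487 gene IDs.

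Genes were kept with filterByExpr (count minimum 10, total minimum 15), scaled with TMM factors and compared in edgeR 4.0.16 (R 4.3.3) by its quasi-likelihood test, robust and without covariates. Standard errors were derived from each F statistic, intervals are 95%, and CPM are TMM-scaled. The fit was tested on simulated counts, where it recovered most changed genes, and its false calls exceeded the nominal share. Centred levels and marker means used log2 CPM with a prior count of 2. Alternatives were DESeq2 1.42.0, limma-voom (limma 3.58.1), other scalings and filters, a replicate block, a muscle covariate, tissue genes left out and each library left out. Coordinates and lengths were read from GENCODE M21 (GRCm38, known as mm10), and promoters from RefSeq.

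The members, the related lists and the tests were chosen with earlier results of these data known. Named from each related list were its called genes or, with none, the 2 genes of smallest p with at least 1 CPM. Fosl2, Egr2, Nr4a2, Nr4a3, Myc, Dusp8, Dusp10, Sik1, Gadd45a, Rhob, Mcl1 and Ccl2 were chosen after their values were seen. A gene named by the likeness rule is not reported here.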

Additional observations from a re-analysis of the deposited data

How the results depend on the processing

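The count of 0 immediate early genes called held in edgeR with RLE or upper-quartile factors, the stricter filter, tissue genes left out, the replicate block, the muscle covariate, an adjusted p under 0.1 and each library left out, and in limma-voom and DESeq2. Without the filter on low counts edgeR called 3 of the 10 (Dusp1, Nr4a1 and Junb, lower), 13 related early genes and 1187 of all genes. That setting tested every gene with any count, and how many these were is not given here. Its counts therefore cannot be set against a share of all genes. All genes called, 6 in the report, were 553 with DESeq2, 0 with limma-voom (2329 at an unadjusted p under 0.05), 14 with the replicate block, 0 with the muscle covariate (527 unadjusted) and 33 at an adjusted p under 0.1, and 0 to 217 with a library left out, the highest without inhibition 3. Related early genes called were 8 with DESeq2, 1 with the replicate block, 1 at an adjusted p under 0.1 and 0 to 2 with a library left out. The median log2 fold change of the 10 genes was -0.48 to -0.24 with a library left out and 0.027 with the muscle covariate. Under that covariate the sign turned for Junb (0.043), Ier2 (0.16), Ier3 (0.31), Dusp1 (0.011), Zfp36 (0.37), Maff (0.094), Dusp6 (0.082), Plk2 (0.051), Zc3h12a (0.055), Id1 (-0.23), Nr4a2 (-0.39) and Nr4a3 (-0.78), and the cause was not tested. Jun turned to 0.044 with limma-voom and 0.019 with the replicate block. With a library left out the sign turned for Jun (-0.15 to 0.26), Egr1 (-0.20 to 0.31), Ier2 (-0.15 to 0.083) and Nr4a2 (-0.079 to 0.27).

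Same-numbered libraries were not always the most alike. The correlation of their deviations from the group means across 15666 genes was -0.18, 0.33 and 0.087 for numbers 1, 2 and 3. Inhibition 1 and 3 were closest to control 2 and 1, and inhibition 2 to control 2. With 3 libraries per group these values cannot exclude a pairing. The labels name none, so the replicate block was not read as a paired analysis. Depth limited Fosb most, at 48 to 248 counts per library.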

Other observations

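Genes whose profile over the 6 libraries lay near that of Fos, by the root-mean-square distance of centred log2 CPM among genes with at least 1 CPM, were D330023K18Rik (0.0908), Ifi202b (0.103), Ppara (0.134) and Gm17501 (0.141), all scarce, with at most 84 counts in any library. The nearest immediate early gene was Nr4a1, at a distance of 0.286, with Junb at 0.336 and Fosb farthest at 0.605. Nearest to the mean profile of the 10 genes were Mras, a small GTPase related to Ras (0.0587), the transporter Slc16a6 (0.0589), the chromatin remodeller Chd7 (0.0684), the metalloprotease Adamts14 (0.0716) and Sft2d3 (0.0728).

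Activity-dependent genes best known from neurons were at or near the limit of detection. Egr4 had 0 counts in every library, Npas4 had 2, 1 and 8 counts in inhibition 1, 2 and 3, against 4, 4 and 0 counts in control 1, 2 and 3, and Arc had 8, 5 and 16 counts, against 7, 8 and 13 counts. Myc, a growth-related early gene, ran against most members, with 107, 86.5 and 132 CPM in inhibition 1, 2 and 3, against 81.1, 96.1 and 81.3 CPM in control 1, 2 and 3 (log2 fold change 0.33, edgeR adjusted p = 0.345), and it was at 0.16 without inhibition 3, its highest library.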
